A study of Homo sapiens with 4 samples.

Results

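Nectins and nectin-like molecules are cell-surface immunoglobulin-type adhesion proteins. The genes PVR, NECTIN1, NECTIN2, NECTIN3, NECTIN4, CADM1, CADM3 and CADM4 were followed here in Hs746T cells, an established gastric carcinoma line that carries an amplified MET gene with an exon-skipping mutation. Members were taken by name, and every non-control probe whose RefSeq accession belongs to any of these genes was used, which gave 12 of the 34127 probes on the array and 8 of 19740 named genes. Expression was measured in total RNA on single-colour Agilent human V2 arrays, with 1 array for each of 4 conditions. The conditions were DMSO as vehicle, the MET kinase inhibitor PHA665752, a scrambled siRNA (SC siRNA) and an siRNA against MET (MET siRNA). Cells given siRNA were collected 48 h after transfection, and for the inhibitor neither the dose nor the exposure is given in the sources used here. The PHA665752 array was set against DMSO and the MET siRNA array against SC siRNA, to ask how these genes stand when MET is suppressed by either route, and SC siRNA was set against DMSO to show how far the controls lay apart. With a single array per condition the spread between cultures is unknown, no difference could be tested, and precision is limited by the number of arrays.

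Nectins join neighbouring cells by binding each other across the contact, and their tails are tied to the actin cytoskeleton through afadin. Some members have a second role as ligands for receptors of T and NK cells. PVR (CD155) and NECTIN2 (CD112) engage the activating receptor CD226 and the inhibitory receptor TIGIT, PVR also binds CD96, NECTIN2 also binds PVRIG, and CADM1 binds CRTAM. The balance between these receptors is known to shape the killing of tumor cells by lymphocytes, and some of the same proteins serve viruses for entry, such as PVR for poliovirus and NECTIN1 for herpes simplex virus.

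The values below are the processed signal of a probe, in linear intensity units, and log2 ratios of the signal after each array was scaled to its own 75th percentile, which corresponded to signals between 831 and 990.1. A probe counted as measured on an array when Feature Extraction marked it as well above background, which held for 61.1% to 68.2% of the probes, with the lowest share on the MET siRNA array. The lowest signal so marked was 17.4 on that array and between 10.2 and 12.3 on the others. Probes spotted 10 times showed that spot noise alone allows, at the 95% level, a log2 ratio of 0.57 for signals below 30, 0.28 between 30 and 100, 0.16 between 100 and 1000 and 0.13 above, taken here from the dimmer array of a pair. These limits rest on the median spread between spots within an array, so a noisier probe can exceed them by spot noise alone. They do not cover differences in labelling or hybridization between arrays, or differences between cultures. MET, the targeted transcript, had signals of 221451 under DMSO, 100492 under PHA665752, 190010.0 under SC siRNA and 77854 under MET siRNA, a log2 ratio of -0.93 for the inhibitor and -1.33 for the siRNA. Epithelial markers were measured, with EPCAM between 1958 and 2709 and KRT18 between 19850.0 and 33631, but CDH1 (E-cadherin) was dim, at 10.4 to 33.0. Among the leukocyte markers, CD3E was not well above background on any array, and the brightest probes of PTPRC, CD3D and CD2 did not exceed 37.8.

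Of the 8 genes, 6 were measured on every array, with 10 of the 12 probes. CADM3, a nectin-like molecule of the nervous system, had signals of 4.13, 2.62, 2.17 and 3.72 under DMSO, PHA665752, SC siRNA and MET siRNA. CADM4, a nectin-like molecule of epithelia and myelinating glia, had 2.14, 2.45, 2.05 and 3.44 in the same order. Neither was well above background on any array, so no ratio was formed for them and no statement on a change can be made. In a culture, fewer cells with a transcript and less transcript per cell cannot be told apart. Because probes differ in how well they hybridize, ratios compare arrays for a probe. Brightness across probes served to choose the probe that stood for a gene and as a rough guide for the markers, and it does not rank transcript levels.

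**Figure D1:**
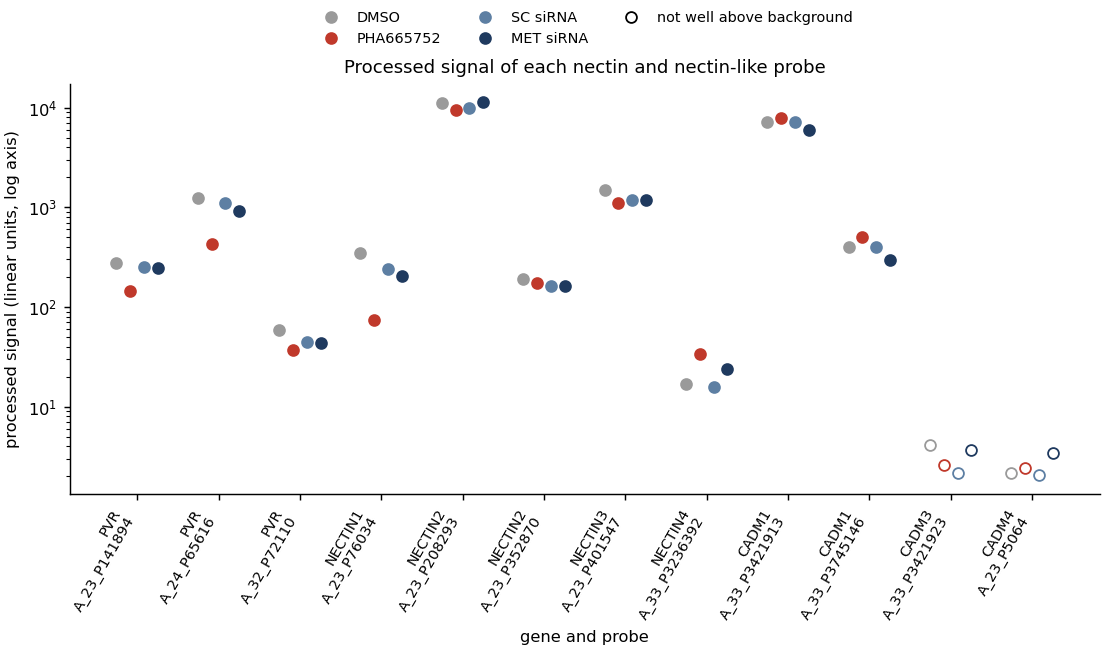
Processed signal (linear units on a log axis) of the 12 probes of nectins and nectin-like molecules, with 1 point per array, coloured by condition; open points were not well above background. The PHA665752 point lies below the other 3 at each PVR probe and at NECTIN1 (74.0 against 203 to 347), above the others at NECTIN4, and the CADM3 and CADM4 points are unfilled on all 4 arrays.

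NECTIN1 showed the largest difference of the 6 measured genes. Its protein binds NECTIN3 and NECTIN4 on the neighbouring cell. The signal of the NECTIN1 probe (A_23_P76034, NM_203286) was 347 under DMSO, 74.0 under PHA665752, 239 under SC siRNA and 203 under MET siRNA. The inhibitor array was the low one, and the other 3 lay between 203 and 347. After scaling, NECTIN1 was 4.04-fold lower under PHA665752, a log2 ratio of -2.01, and only 1.72% of the 14322 genes with a ratio had a lower one. With MET siRNA its log2 ratio was -0.28, past the spot limit of 0.16 but short of 2-fold. The controls also differed by -0.28, and these comparisons share the SC siRNA array. A single NECTIN1 probe was named, so no second probe bears on these values. With normexp background correction, in which an offset of 50 compresses low signals, the inhibitor ratio was -1.24.

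PVR, the ligand shared by CD226, TIGIT and CD96, was lower under PHA665752 at each of its 3 probes, all annotated to NM_006505, but by unequal amounts. At the brightest probe (A_24_P65616) the signal was 1252 under DMSO, 429 under PHA665752, 1112 under SC siRNA and 908 under MET siRNA. This probe was 2.51-fold lower under PHA665752, a log2 ratio of -1.33, and its log2 ratio was -0.34 under MET siRNA and 0.083 between the controls. At the probe of middle brightness (A_23_P141894) the signals were 278, 145, 251 and 245 in the same order. Its log2 ratio was -0.72 under PHA665752 and -0.084 under MET siRNA. At the dimmest probe (A_32_P72110) the signals were 59.1, 37.2, 45.1 and 43.8. The log2 ratio of that probe was -0.46 under PHA665752 and -0.088 under MET siRNA. Every PVR ratio under PHA665752 thus exceeded its spot limit, while under MET siRNA only that of the brightest probe did. The median over the 3 probes was -0.72 under PHA665752, so that whether PVR passed 2-fold depended on the probe that stood for it, and what sets the probes apart was not tested.

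NECTIN2, the other ligand of CD226 and TIGIT, lies on the same chromosome as PVR, with 202 kb between the RefSeq starts of the genes, and had ratios near 0. Its probe for NM_001042724 (A_23_P208293) had signals of 11206 under DMSO, 9539 under PHA665752, 10025 under SC siRNA and 11301 under MET siRNA. The log2 ratios were -0.018 under PHA665752, 0.13 under MET siRNA and 0.092 between the controls, all within the spot limit. Its probe for NM_002856 (A_23_P352870) had signals of 191, 172, 161 and 161, with log2 ratios of 0.067 and -0.051 for the treatments. The 4 arrays spanned only 0.24 and 0.11 on the log2 scale at these probes. The sign of the brighter probe's ratio depended on the scaling, being 0.12 for the inhibitor under quantile normalization and -0.17 under MET siRNA when arrays were divided by the median of their probes well above background. The difference between PVR and NECTIN2 in the inhibitor ratio has no replicate error to be set against.

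The 250 bases upstream of the RefSeq start (GRCh38.p14) are printed for PVR, NECTIN2 and NECTIN4, since these stood lower, near even and higher under PHA665752. RefSeq promoters were found for 6 of the 8 genes, the others being NECTIN1 and CADM1. Capitals mark the GC box GGGCGG on either strand, a letter pattern bound by SP-family factors.
PVR, chr19:44643660-44643909, + strand: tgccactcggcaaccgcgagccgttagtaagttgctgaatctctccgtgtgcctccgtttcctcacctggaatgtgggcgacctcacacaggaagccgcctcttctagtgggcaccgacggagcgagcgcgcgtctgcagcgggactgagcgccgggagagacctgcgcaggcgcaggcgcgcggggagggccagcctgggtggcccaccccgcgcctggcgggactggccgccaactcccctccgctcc
NECTIN2, chr19:44846047-44846296, + strand: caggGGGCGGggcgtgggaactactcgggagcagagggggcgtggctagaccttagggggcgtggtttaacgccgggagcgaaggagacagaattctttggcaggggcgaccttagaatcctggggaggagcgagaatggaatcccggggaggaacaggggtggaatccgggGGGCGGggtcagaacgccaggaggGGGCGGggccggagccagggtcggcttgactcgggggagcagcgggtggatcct
NECTIN4, chr1:161089559-161089808, - strand: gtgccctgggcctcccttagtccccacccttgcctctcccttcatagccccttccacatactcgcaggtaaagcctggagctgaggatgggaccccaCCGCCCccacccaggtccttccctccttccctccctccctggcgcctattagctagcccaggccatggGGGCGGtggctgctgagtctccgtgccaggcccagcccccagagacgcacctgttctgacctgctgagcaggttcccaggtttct

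The PVR window held 0 GC boxes, NECTIN2 3, NECTIN3 5, NECTIN4 2, CADM3 0 and CADM4 7, and 42.6% of 35116 promoter windows held at least 1. The windows were also searched on both strands for the AP-1 pattern TGANTCA (in 6.57% of windows), the CRE TGACGTCA (1.65%), the E-box CACGTG (6.34%) and the ETS pattern CCGGAAGT (3.42%). None of the 6 windows held any of these 4 patterns, which says only that the letters are not in this stretch. The GC content was 70.0% for PVR, 67.6% for NECTIN2 and 65.2% for NECTIN4.

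NECTIN3, which binds NECTIN1, NECTIN2 and PVR across the cell contact, stayed well within 2-fold. The signal of its probe (A_23_P401547, NM_015480) was 1506 under DMSO, 1106 under PHA665752, 1196 under SC siRNA and 1185 under MET siRNA. The DMSO array was the highest of the 4 and the inhibitor array the lowest, within a span of 0.23 on the log2 scale. The log2 ratio was -0.23 under PHA665752, past the spot limit of 0.13, and -0.059 under MET siRNA, within it. Among all genes with a ratio, 31.9% lay lower with the inhibitor. The inhibitor ratio was below 0 in all 10 other ways of processing, from -0.48 to -0.23, though some of these could not change it.

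NECTIN4, a tumor antigen that also serves measles virus for entry, went the other way. The signal of its probe (A_33_P3236392, NM_030916) was 16.9 under DMSO, 33.5 under PHA665752, 15.6 under SC siRNA and 24.1 under MET siRNA. Each treated array lay above both controls, at signals near the detection limit. That limit was itself higher on the MET siRNA array, at 17.4 against 10.2 on the SC siRNA array. How far this enters the siRNA ratio was not tested. The log2 ratio was 1.20 under PHA665752 (2.30-fold higher) and 0.58 under MET siRNA, against a spot limit of 0.57 at this brightness, and 0.14 between the controls. Among all genes, 9.77% were higher with the inhibitor and 5.44% with the siRNA. The inhibitor ratio dropped below 2-fold under 4 of 10 other ways of processing, and its sign held in all 10. It was 0.95 with the 50th percentile, 0.90 with plain background subtraction, 0.85 with quantile normalization and 0.41 with normexp. Lifting the filter on dim probes, using measured probes only or taking the median over probes could not change a single probe measured on every array. Keeping spots marked as outliers, or taking the table of the whole series, reused the same intensities and gave 1.19. With the median of probes well above background the ratio was 1.11.

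CADM1, a homophilic adhesion molecule, ligand of CRTAM and tumor suppressor of epithelial cancers, had ratios of opposite sign with the treatments. At the brighter probe (A_33_P3421913, NM_014333) the signal was 7121 under DMSO, 7854 under PHA665752, 7114 under SC siRNA and 5898 under MET siRNA. The inhibitor array was the highest and the MET siRNA array the lowest. The log2 ratio was 0.36 under PHA665752 and -0.32 under MET siRNA, each past the spot limit of 0.13 and short of 2-fold. At the dimmer probe (A_33_P3745146, NM_001098517) the signals were 403, 504, 398 and 298, in the same order of conditions. Its log2 ratios were 0.54 and -0.46, so both probes ran the same way. The controls differed by 0.25 and 0.23 at these probes, so the scaled MET siRNA level of 2.78 at the brighter probe was close to the 2.85 of the DMSO array. The signs of both CADM1 ratios held in all 10 alternatives, with a range of 0.11 to 0.46 for the inhibitor and -0.62 to -0.27 for the siRNA. Lifting the filter on dim probes or using measured probes only could not change these ratios.

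**Figure D2:**
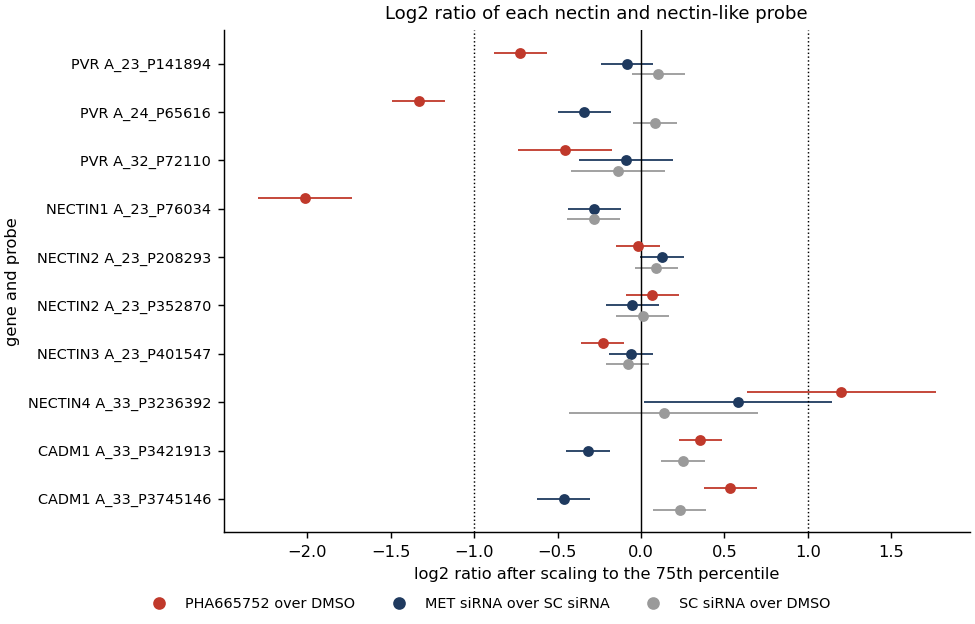
Log2 ratio after scaling to the 75th percentile of the 10 probes measured on every array, for PHA665752 over DMSO, MET siRNA over SC siRNA and SC siRNA over DMSO; bars are the 95% limits of spot noise and dotted lines mark 2-fold. The inhibitor ratios run from -2.01 at NECTIN1 to 1.20 at NECTIN4, and no siRNA or control ratio passes 2-fold.

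With the brightest probe standing for each gene, 2 of the 6 measured genes (NECTIN1 and PVR) were more than 2-fold lower under PHA665752, where 8.04% of all genes were, and 1 (NECTIN4) was more than 2-fold higher, where 13.1% were. With MET siRNA 0 of 6 passed 2-fold, where 2.73% of all genes did in either direction. Between SC siRNA and DMSO 0 of 6 passed as well, against 4.05% of all genes. The median log2 ratio of the 6 genes was -0.12 under PHA665752 and -0.17 under MET siRNA, beside 0.075 and -0.017 over all genes. At 9 of the 10 probes the ratio under PHA665752 was larger in size than that under MET siRNA, the exception being the brighter NECTIN2 probe. The ratios of the treatments, which share no array, had the same sign at 6 of 10 probes, the exceptions being both NECTIN2 and both CADM1 probes. In each treatment 4 of the 6 genes stood below 0 and 2 above, where 45.1% of all genes were below 0 under PHA665752 and 53.0% under MET siRNA. These counts describe the members and are no test of the family.

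**Figure D3:**
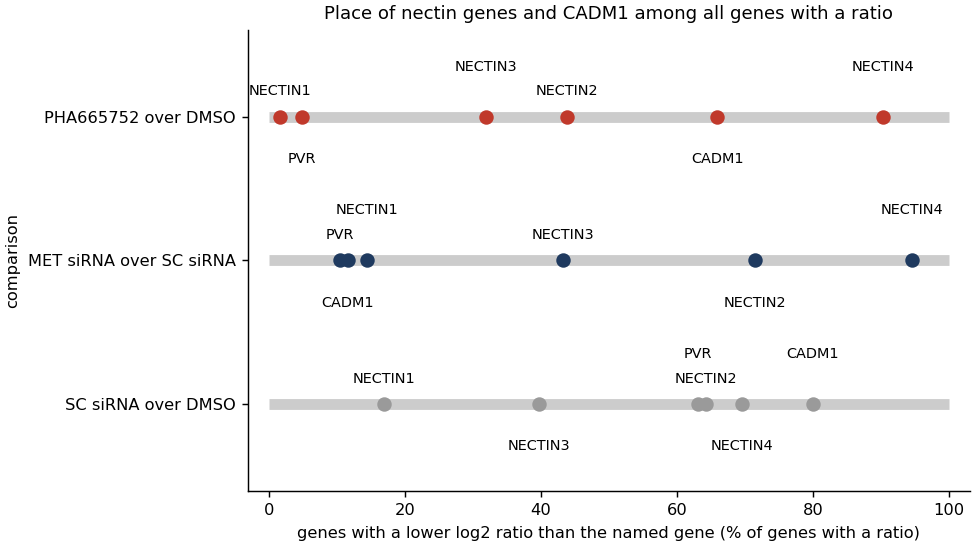
Share of genes (%) with a lower log2 ratio than each named gene, among the genes with a ratio in that comparison. NECTIN1 and PVR lie at 1.72% and 4.86% under PHA665752 and at 14.5% and 10.4% under MET siRNA, while NECTIN4 lies at 90.2% and 94.6%.

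**Figure D4:**
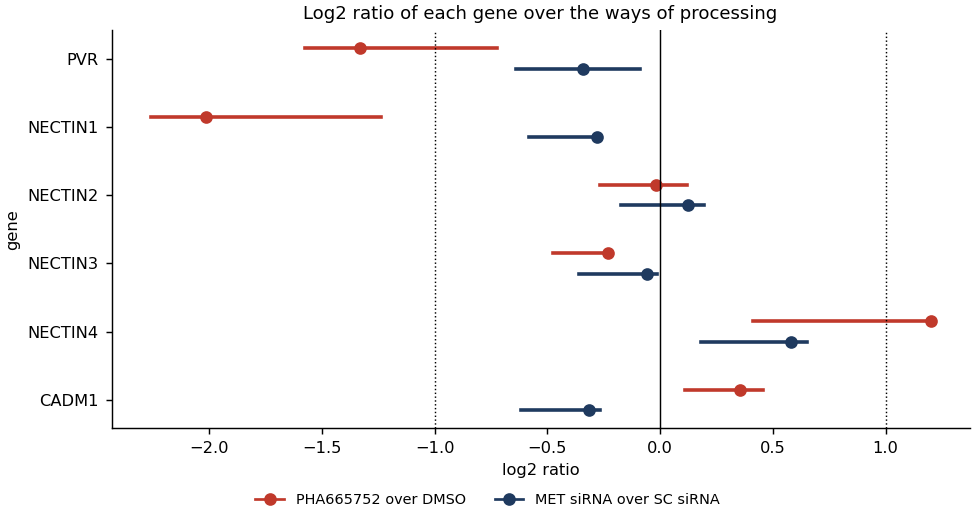
Log2 ratio of the 6 measured genes with each treatment; the point is the value reported and the line spans it together with 10 other ways of processing, with dotted lines at 2-fold. NECTIN1 stays below -1 throughout under PHA665752 (-2.26 to -1.24), whereas PVR reaches -0.72 and NECTIN4 reaches 0.41.

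Genes with the most similar pattern were sought by the distance over the 3 log2 ratios among 13073 other genes measured on every array. With 4 arrays such likeness is a description. Nearest to NECTIN1 were CREB5 (distance 0.132), MAD2L1 (0.135) and NFATC2 (0.162), with inhibitor ratios of -2.01, -2.04 and -1.95. CREB5 and NFATC2 encode transcription factors and MAD2L1 a spindle checkpoint protein. Nearest to PVR were NOC3L (0.077), ADORA2B (0.087) and GSTCD (0.096), with inhibitor ratios of -1.35, -1.32 and -1.38. ADORA2B is an adenosine receptor. Nearest to NECTIN4 were NUDT9P1 (0.033), PRDM16 (0.067) and STAT5A (0.10), with inhibitor ratios of 1.20, 1.19 and 1.15.

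The partners of these proteins were followed with hand-written lists, 25 genes in all, of which 20 had a ratio under PHA665752 and 19 under MET siRNA. Past 2-fold stood at least 1 of the 20 under PHA665752 (CDH3, higher), where 13.1% of all genes were higher and 8.04% lower. CADM2 had only a lower bound of 0.997 at its brightest probe, so whether it passed 2-fold is not known. Under MET siRNA 0 of 19 passed, where 2.73% of all genes did, and between the controls 1 of 20 was higher (PVRIG) and 1 lower (CDH1), where 4.05% passed in either direction. For each gene the brightest probe was counted, and the other measured probes are given with the genes. Among the immune receptors, TIGIT, CD226 and CD96 were not well above background on any array. PVRIG, the inhibitory receptor of NECTIN2, had low signals of 12.8 under DMSO, 11.6 under PHA665752 (not well above background), 38.4 under SC siRNA and 58.0 under MET siRNA. Both transfected arrays were thus higher than the others, with a log2 ratio of 1.84 between the controls and 0.55 under MET siRNA. CRTAM, the receptor of CADM1, had signals of 45.8, 50.2, 45.4 and 81.6, a log2 ratio of 0.80 under MET siRNA. For PVRIG and CRTAM the leukocyte markers above are the values to set beside them, and their part was not tested. The detection limit was 17.4 on the MET siRNA array against 10.2 on the SC siRNA array. How far this enters the siRNA ratios of PVRIG and CRTAM was not tested.

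Of the 6 cytoplasmic partners of nectins or nectin-like molecules, 0 passed 2-fold in either treatment. A list this short cannot be told apart from the shares of all genes given above. Their median log2 ratio was -0.17 under PHA665752 and -0.064 under MET siRNA, beside 0.075 and -0.017 over all genes. AFDN, which encodes afadin, had log2 ratios between -0.14 and 0.034 for the inhibitor at its 4 measured probes, and between -0.15 and 0.20 for the siRNA. PALS2, a scaffold that binds CADM1, was the lowest at -0.93 and -0.37, on signals of 1978 under DMSO, 892 under PHA665752, 1456 under SC siRNA and 1166 under MET siRNA. CASK, another scaffold, stood at -0.16 under PHA665752 at its brighter probe and at -0.62 at its dimmer one, past the spot limit of 0.16 at the latter. PARD3 stood at -0.25 and 0.011 at its probes, EPB41L3 at -0.19 and MPP3 at 0.15.

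Among adherens junction genes the classical cadherins had unlike ratios. CDH3 (P-cadherin) had signals of 167 under DMSO, 1107 under PHA665752, 134 under SC siRNA and 259 under MET siRNA. Its log2 ratio was 2.95 under PHA665752 and 0.90 under MET siRNA, the highest measured among the pathway genes in each. Between the controls it was -0.060. CDH2 (N-cadherin) stood at 0.26 under PHA665752 at its brighter probe and 0.032 at its dimmer one, and at 0.10 and 0.16 under MET siRNA. CDH1 stood at 0.084 under PHA665752. It had no siRNA ratio, since CDH1 was not well above background under MET siRNA. After scaling, the detection limit of that array lay above the CDH1 level under SC siRNA, so no bound could be given. JUP (plakoglobin) had an outlier mark on the inhibitor array and so no value there. The catenin gene CTNND1 stood at 0.82 under PHA665752 at its brighter probe and at only 0.26 at its dimmer one. CTNNA1 stood at 0.30 and 0.16 at its probes, and CTNNB1 at -0.14 and -0.24. VCL stood at -0.21 under PHA665752 and -0.35 under MET siRNA, each past the spot limit of 0.13. By the brightest probes these were the lowest ratios of the adherens junction genes. All 3 tight junction genes were higher under PHA665752 at F11R (0.61), TJP1 (0.37) and OCLN (0.95), without passing 2-fold at the brightest probe. Of all genes 45.1% stood below 0 in that comparison, and a list this short cannot be told apart from that share. The second F11R probe stood at 0.38 and the second OCLN probe at 1.06. ADAM17, a sheddase of surface proteins, stood at 0.80 while ADAM10 stood at 0.070 and 0.20 at its probes. CADM2, a nectin-like molecule outside the 8 genes, was well above background only under PHA665752, with a signal of 18.7 at each of its 2 probes, and its log2 ratio was at least 0.997 at one and at least 1.003 at the other.

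**Figure D5:**
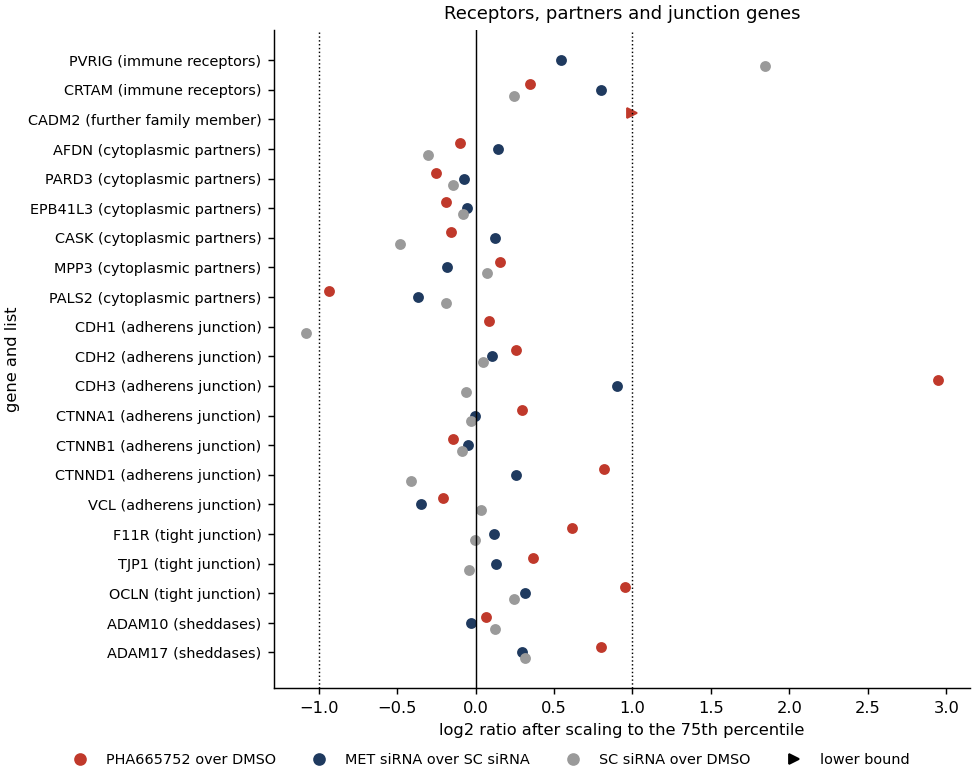
Log2 ratio of the receptor, scaffold, junction and sheddase genes that had a ratio in any comparison, with 1 point per comparison, triangles for bounds and dotted lines at 2-fold. The brightest probe of each gene is shown. CDH3 lies at 2.95 under PHA665752, PVRIG at 1.84 between the controls and CDH1 at -1.08 between the controls. The other measured points lie within 2-fold, and the CADM2 triangle at 0.997 is a lower bound.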

How the data were processed

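Total RNA of Hs746T cells was hybridized to 4 arrays, 1 per condition, on a single slide. Spot values came from Feature Extraction (11.5.1.1 per the file headers), and the intensity that the authors deposited is linear, already background-subtracted and not normalized between arrays. The table of the whole series holds the same intensity for probes spotted once, within 0.05.

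Spots marked as outliers (1.69% to 5.58% per array, the most under MET siRNA) and control spots were left out, spots of a probe were averaged as log2 values, and the 75th percentile was subtracted. No spot was saturated. A probe measured on 1 array of a pair gave a bound, taken against the detection limit of the other array or the dim probe's signal there if greater. No ratio was given where the measured array did not lie above that value after scaling, or where a probe was measured on neither array. A fold was called past 2-fold. Probes were named by accession through the RefSeq table of GRCh38.p14, used for names and promoters only since the array was designed on another build; 75.5% of 34127 probes received a symbol, and unnamed probes may include further ones of these genes. The probe with the highest mean log2 signal stood for its gene, and nearest genes were named, 3 each, for members past 2-fold under either treatment. The alternatives were 10: the 50th percentile, quantile normalization, the median of probes well above background, normexp (limma 3.58.1, offset 50), plain background subtraction, outlier marks ignored, no filter on dim probes, measured probes only, the series table, and the median over a gene's probes. Simulated arrays were used to test the computation of ratios and bounds. Software was R 4.3.3 and Python 3.11.15 (pandas 2.3.3, numpy 2.4.6). Members, lists and rules were chosen with earlier results of these data known. A listed marker is not reported here.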

Additional observations from a re-analysis of the deposited data

Results flagged for a closer look

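The CADM1 ratios ran in opposite directions with the treatments at both probes, and each exceeded the spot limit. At probe A_33_P3421913 the inhibitor gave a log2 ratio of 0.36 and the siRNA -0.32. At probe A_33_P3745146 the inhibitor gave 0.54 and the siRNA -0.46. The inhibitor ratio minus the siRNA ratio was 0.673 and 0.997 at these probes, and this difference was not tested, since each condition had a single array.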

How the results depend on the processing

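No paired analysis was possible because each condition had a single array. Under the 10 alternatives, between 2 and 3 members passed 2-fold under PHA665752 and 0 under MET siRNA or between the controls. NECTIN1 passed in all 10, PVR in 9 (not with the median over its probes, -0.72) and NECTIN4 in 6. These tallies, and the count of moved ratios below, include alternatives that could not move a ratio. Lifting the filter on dim probes or using measured probes only leaves any probe measured on every array unchanged. The median over probes leaves NECTIN1 and NECTIN4, with a single probe each, unchanged. The series table and ignored outlier marks use the same intensities as the main values. Of 180 single ratios recomputed, 16 moved by more than the spot limit, and none that passed 2-fold changed sign, whereas NECTIN2 changed sign in 2 alternatives for the inhibitor and in 1 for the siRNA. The 50th percentile moved the median of all genes by -0.25 under PHA665752, and the median of probes well above background moved it by -0.30 under MET siRNA. Under the latter scaling, PVR stood at -0.64 and NECTIN1 at -0.58 under MET siRNA, beside a median of -0.31 over all genes. Normexp, whose offset compresses dim probes, gave NECTIN4 0.41 under PHA665752 and 0.18 under MET siRNA. Signals near background limit NECTIN4 most, and nothing can be said of CADM3 and CADM4.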

Other observations

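Among the cell type markers, PECAM1, an immunoglobulin-type adhesion molecule of endothelium and platelets, was measured on every array at all 3 of its probes. At the brightest (A_23_P252471) the signal was 1846 under DMSO, 304 under PHA665752, 1038 under SC siRNA and 791 under MET siRNA. Its log2 ratio was -2.39 under PHA665752, -0.44 under MET siRNA and -0.58 between the controls. The other PECAM1 probes gave -2.14 and -2.42 under PHA665752. CDH5, the endothelial cadherin, had signals between 63.5 and 88.5 and a log2 ratio of -0.21 under PHA665752. FN1, which encodes fibronectin, had signals of 1061, 3564, 770 and 1107 in the order of the conditions, with log2 ratios of 1.96 and 0.48 for the treatments.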
